A study of Mus musculus with 28 samples.

Results

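The livers described here are those of 7 female Mif-2-/- Apoe-/- mice, which lack both MIF-2 (the cytokine D-dopachrome tautomerase, encoded by Ddt) and apolipoprotein E in the whole body and had eaten a high-fat diet for 12 weeks. They are 7 of the 14 mice and 14 of the 28 libraries of a study on MIF-2 in atherosclerosis and liver lipid metabolism. Every mouse had 2 libraries from the liver, which were summed, so that n is 7 mice throughout. The mice carry no label other than a number, all share genotype, sex, tissue and diet, and no control group enters any comparison. The livers were chosen by genotype, and they were ordered by a measured value, the summed level of Saa1 and Saa2 as log2(CPM + 1), where CPM is the count of a gene scaled to the sequencing depth of the mouse. Genes with a mean of at least 20 CPM were then described by how they ranked along that order. At the edge of that filter, Ppia was just inside with a mean of 20.01 CPM (9.49 to 27.9 CPM over the mice) and Ahr just outside with 19.98 CPM (11.2 to 31.1 CPM).

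In the acute phase response, interleukin-6 and interleukin-1 act on hepatocytes through STAT3, NF-kB and C/EBP factors, and the liver changes the set of plasma proteins it secretes. Serum amyloid A1 and A2, small apolipoproteins carried on high-density lipoprotein, are among the most strongly induced of these proteins in the mouse. Orosomucoids, fibrinogen, haptoglobin and hemopexin also rise in this response, while albumin and transthyretin are classed as negative acute-phase proteins.

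Serum amyloid transcripts spanned a wide range within the genotype. Saa1 stood at 207, 238, 387, 611, 669.5, 6416 and 20323 CPM in mice 5, 3, 2, 1, 7, 6 and 4, the order of the axis from low to high. Saa2 stood at 176, 226, 367, 481, 559, 6681 and 26243 CPM in the same order. Mice 6 and 4 lay far above the other 5, and Saa1 plus Saa2 took 1.32% and 4.68% of all counts in these 2 livers against 0.0435% to 0.122% in the others. On the log2 scale the axis read 8.58, 8.86, 9.56, 10.09, 10.26, 13.68 and 15.51, so the 5 lower mice covered 1.68 log2 units of a range from 8.58 to 15.51. These values fixed the order and are given as a description with no test. The ratio of Saa1 to Saa2 was 1.06 to 1.27 in the 5 lower livers, 0.96 in mouse 6 and 0.774 in mouse 4, but the longest coding transcripts of the 2 genes match at 94.4% of 606 aligned bases, so counts may be split between them and only their sum was used as the axis.

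**Figure D1:**
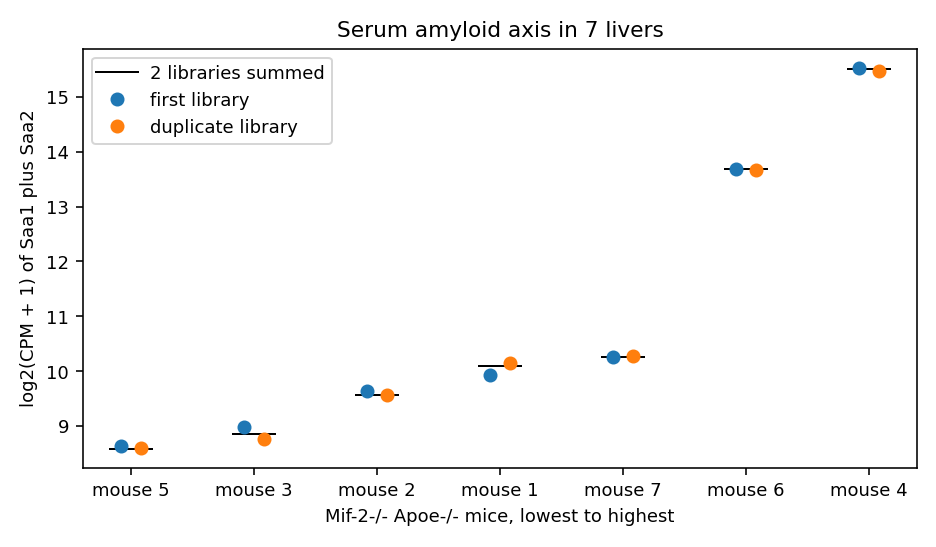
Saa1 plus Saa2 as log2(CPM + 1) in each of the 7 Mif-2-/- Apoe-/- livers, from the first library, the duplicate library and their sum. Mice 6 and 4 stand at 13.68 and 15.51, above the other 5 livers at 8.58 to 10.26, and the libraries of a mouse lie close together.

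The 250 bases before the annotated start of Saa1, Saa2, Saa3 and Orm2 are shown because the first pair carries the axis, Saa3 is the amyloid gene that left the order in mouse 6, and Orm2 is among the genes with the steepest slopes. Capitals mark matches to TTNNGCAA, a C/EBP-type motif searched on both strands. The sequences are from RefSeq on GRCm38.p6, the assembly behind mm10. Saa1 is at chr7:46742981-46743230 on the minus strand, Saa2 at chr7:46751583-46751832 on the plus strand, Saa3 at chr7:46715677-46715926 on the minus strand and Orm2 at chr4:63362199-63362448 on the plus strand.
Saa1: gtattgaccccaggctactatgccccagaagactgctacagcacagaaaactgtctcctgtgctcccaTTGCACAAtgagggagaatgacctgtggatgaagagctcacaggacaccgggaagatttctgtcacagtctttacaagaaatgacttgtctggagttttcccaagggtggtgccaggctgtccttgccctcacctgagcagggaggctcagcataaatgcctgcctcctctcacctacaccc
Saa2: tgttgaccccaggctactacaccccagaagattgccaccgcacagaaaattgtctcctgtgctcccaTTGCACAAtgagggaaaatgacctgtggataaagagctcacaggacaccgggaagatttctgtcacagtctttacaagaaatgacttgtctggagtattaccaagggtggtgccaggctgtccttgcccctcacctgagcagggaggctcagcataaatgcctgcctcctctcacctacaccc
Saa3: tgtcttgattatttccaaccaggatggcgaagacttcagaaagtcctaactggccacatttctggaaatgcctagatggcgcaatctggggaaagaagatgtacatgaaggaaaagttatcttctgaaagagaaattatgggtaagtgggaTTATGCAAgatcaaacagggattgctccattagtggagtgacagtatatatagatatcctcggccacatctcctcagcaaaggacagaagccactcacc
Orm2: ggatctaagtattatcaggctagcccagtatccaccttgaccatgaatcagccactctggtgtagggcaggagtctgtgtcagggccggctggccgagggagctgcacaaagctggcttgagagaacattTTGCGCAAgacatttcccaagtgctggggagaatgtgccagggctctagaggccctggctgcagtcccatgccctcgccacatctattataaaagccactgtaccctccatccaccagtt
The Saa1 and Saa2 windows were identical at 238 of 249 aligned bases and held the same match, TTGCACAA, which begins 182 bases before the start in Saa1 and 183 bases before it in Saa2. TTNNGCAA occurred in 13 of the 23 promoters found for tested acute-phase genes (56.5%) and in 17 of the 55 found for genes called rising (30.9%), against 10.8% of all 27025 promoters of this length and 10.5% of the 3268 found for tested genes. It was also in 5 of the 14 promoters found for negative acute-phase genes (35.7%), of which edgeR called 0. TTCNNNGAA, a STAT-type motif, occurred in 6 of the 23 (26.1%), in 9 of the 55 (16.4%), in 1 of the 14 (7.14%) and in 8.13% of all promoters and 7.04% of those of tested genes. GGGANTTCC, an NF-kB-type motif, was in 0 of the 23, 0 of the 55, 0 of the 14 and 1.63% of all promoters. The motifs were counted on both strands, overlapping matches included, and a match describes letters in a window, not a bound site.

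The depth of the 7 mice was 1336787 to 2715022 counts, with mouse 4 the deepest and mouse 2 the shallowest. CT010467.1, a ribosomal RNA sequence, took 10.8% of counts in mouse 4, 33.0% in mouse 2 and 17.7% to 21.8% in the other 5. Mitochondrial genes took 12.2%, 18.5%, 21.5%, 14.8%, 12.1%, 11.6% and 8.82% in the axis order. Spearman rho with the axis was -0.75 for the mitochondrial share and -0.46 for the CT010467.1 share (exact permutation p = 0.0663 and 0.302, adjusted p = 0.265 and 0.556). For depth rho was 0.29. Within the 5 lower mice the Pearson correlations of the 2 shares with the axis were -0.13 and 0.17. The part of these shares in the other results was not tested. Ddt, the deleted gene, had 5 to 12 counts in every mouse. Mouse 3 carried skeletal muscle transcripts. The 14 hepatocyte markers all passed 20 CPM and summed to 43680 to 78036 CPM.

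Of 4250 genes tested, 71 rose (1.67%) and 1 fell (0.0235%) along the axis by the edgeR quasi-likelihood slope test at a Benjamini-Hochberg adjusted p below 0.05. At an unadjusted p below 0.05 by edgeR, 454 had a positive slope and 90 a negative one. The slope is the change in log2 CPM per unit of the log2 axis, so a gene that moved in proportion to serum amyloid would have a slope of 1, and the median slope of all genes was 0.028. Of the 71 rising genes 26 were acute-phase genes besides Saa1 and Saa2. In 69 of the 71 rising genes, mice 4 and 6 were the highest livers, an order found in 478 of all genes (11.2%), while the reverse was found in 171 (4.02%). Without mice 4 and 6 edgeR called 0 genes in either direction, with 353 at an unadjusted p below 0.05, and no other tool was run on those 5 mice. Without mouse 4 alone there were 19 rising calls, and without mouse 6 alone 43. The calls therefore rest on these 2 livers. With the CT010467.1 share held in the fit edgeR called 21 rising and 0 falling genes (266 at an unadjusted p below 0.05), with the mitochondrial share held 20 and 3, and with ranks as the axis 38 and 1. Of the 71 rising genes 10 passed the level filter only through mice 4 and 6, with a mean below 20 CPM in the other 5, so that their direction was set by the filter, and the other 61 were 1.49% of the 4090 genes that passed in those 5 mice.

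By rank alone, 220 genes reached a Spearman rho of at least 0.85 with the axis (5.18%) and 34 reached -0.85 or below (0.800%), and the median rho of all genes was 0.25. With library totals in place of TMM scaling these counts were 121 and 93, so the balance of rising to falling ranks depended on the scaling. In exact permutation tests over all orders of the 7 mice, 0 genes passed an adjusted p of 0.05, the lowest adjusted p being 0.281, and 492 had an unadjusted p below 0.05. The rank values are therefore given as descriptions. Of the 71 rising genes 41 also reached a rho of at least 0.85, and 59 had a positive rho within the 5 lower mice, as did 2619 of all 4250 genes (61.6%).

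**Figure D2:**
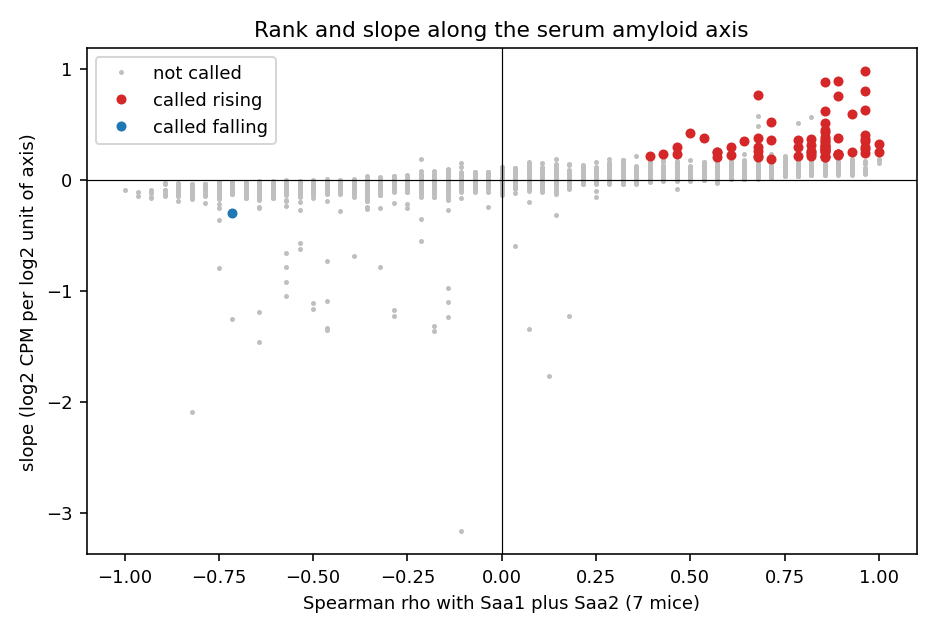
Spearman rho with Saa1 plus Saa2 over 7 livers (x axis) against the edgeR slope in log2 CPM per log2 unit of the axis (y axis), 1 point per gene tested. The 71 genes called rising lie at the upper right, the 1 called falling lies at the lower left, and the points far below 0 that were not called include muscle transcripts of mouse 3.

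The acute-phase list held the largest share of the calls. Of 34 tested members of the list besides Saa1 and Saa2, 26 rose, 0 fell and 8 did not pass the test. In 31 members mice 4 and 6 were the highest, an order found in 11.2% of all genes. The median slope of the 34 was 0.36 and their median rho 0.86, beside 0.028 and 0.25 for all genes. Without Orm3, which passed the level filter only through mice 4 and 6, 25 of 33 rose. In fits that held the CT010467.1 share or the mitochondrial share of counts, 18 of the 34 were called in each, and all 34 kept positive slopes in both. Of all 4250 genes 21 and 20 were called rising in these fits, and the median slopes were 0.0038 and -0.00071. In the main fit 2725 of all 4250 slopes were positive.

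Lipocalin 2 (Lcn2), which binds iron-carrying siderophores of bacteria, stood at 24.2, 48.2, 61.3, 74.3, 62.0, 314 and 1878 CPM in the order from mouse 5 to mouse 4. Mouse 4 was the highest by far, and mouse 6 in turn lay well above the other 5. Its slope was 0.80 ± 0.058 (SE, n = 7 mice, edgeR adjusted p = 8.07e-07). Orm2, an orosomucoid that carries lipophilic ligands in plasma, stood at 179, 147, 163, 240.4, 256, 2071 and 4782 CPM, with a slope of 0.75 ± 0.052 (SE, n = 7 mice, edgeR adjusted p = 8.07e-07). Orm1 stood at 564, 489, 613, 845, 821, 3616 and 8508 CPM, with a slope of 0.60 ± 0.046 (SE, n = 7 mice, edgeR adjusted p = 1.68e-06). The groups of 2 and 5 mice did not overlap in any of these genes, and Orm3 had the same 2 mice on top, at 86.7 and 150.0 CPM. The Orm genes are close relatives in sequence, so their counts may be shared.

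Both pentraxins of the list rose. Apcs, serum amyloid P component and the major acute-phase pentraxin of the mouse, stood at 46.1, 70.9, 64.7, 109, 149.7, 601 and 981 CPM and had a slope of 0.63 ± 0.055 (SE, n = 7 mice, edgeR adjusted p = 3.14e-06). C-reactive protein, Crp, which is only a minor acute-phase protein in mice, stood at 118, 135, 139, 214, 215, 330.2 and 421 CPM and had a slope of 0.25 ± 0.052 (SE, n = 7 mice, edgeR adjusted p = 0.0193). Crp followed the axis in every step, also among the 5 lower mice, whereas the level of Apcs in mice 6 and 4 was separated from the others by a wide gap. The difference between the 2 slopes was not tested.

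Metallothioneins, which bind zinc and copper, rose as well. Mt2 stood at 17.9, 22.2, 35.4, 26.2, 23.1, 612 and 703 CPM and Mt1 at 52.5, 133, 148, 90.5, 70.4, 1407 and 2391 CPM in the axis order. Their slopes were 0.88 ± 0.078 and 0.77 ± 0.079 (SE, n = 7 mice, edgeR adjusted p = 4.31e-06 and 3.97e-05). In both genes mice 6 and 4 were far above the others, and among the 5 lower mice the highest level was that of mouse 2, not of mouse 7. Without mice 4 and 6 the Mt1 slope turned to -0.029.

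**Figure D3:**
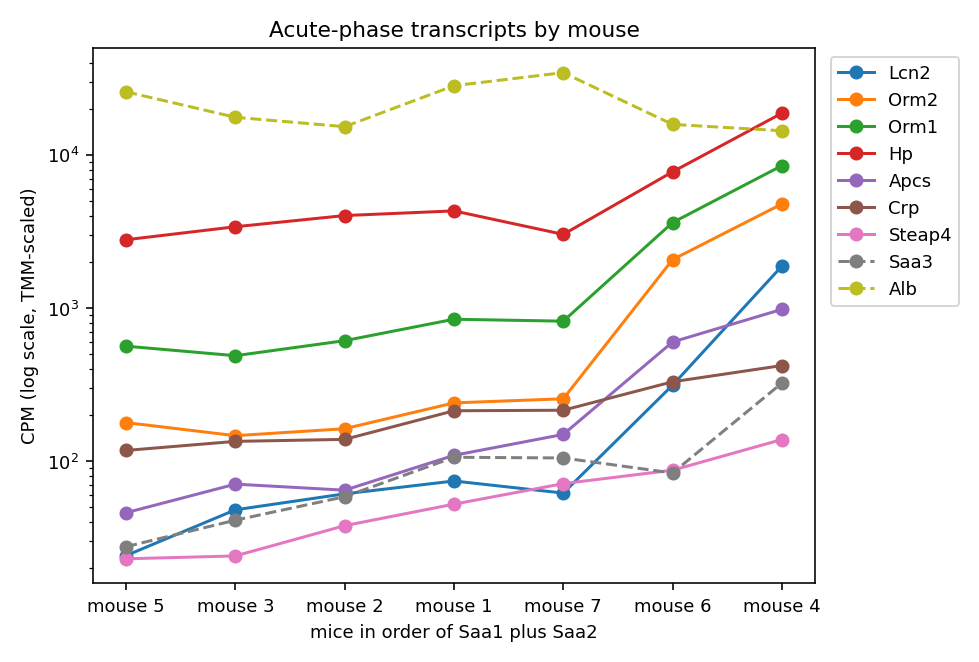
CPM on a log scale for 9 transcripts in the 7 livers, ordered by Saa1 plus Saa2. Lcn2, Orm1, Orm2, Hp and Apcs step up in mice 6 and 4, Crp and Steap4 climb in every step, Saa3 (dashed) lies at 83.8 CPM in mouse 6, and Alb (dashed) has no such order.

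Transcripts of other abundant plasma proteins rose. Haptoglobin (Hp), which captures free haemoglobin, stood at 2793, 3396, 4018, 4309.6, 3028, 7754 and 18721 CPM, and hemopexin (Hpx), which captures haem, at 2439.7, 2083, 2155, 4099.8, 3618, 7776 and 14294 CPM. Their slopes were 0.36 ± 0.051 and 0.38 ± 0.051 (SE, n = 7 mice, edgeR adjusted p = 0.000794 and 0.00048). The 3 fibrinogen chains had slopes of 0.31 ± 0.05 for Fga, 0.35 ± 0.048 for Fgb and 0.34 ± 0.056 for Fgg, with adjusted p of 0.00216, 0.000658 and 0.00297 by edgeR. Fgb went from 915 CPM in mouse 2, its lowest, to 5588 CPM in mouse 4. Among the 5 lower mice none of these genes followed the axis in every step.

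The remaining rising members of the list were Saa4, Lbp, Itih3, Itih4, C3, Serpina3n, Serpina10, Steap4, Fgl1, Nnmt, Prg4, Lrg1 and Saa3. Lrg1, a secreted leucine-rich glycoprotein, stood at 239, 185, 193, 250.4, 206, 923 and 2332 CPM, and Serpina10, the inhibitor that works with protein Z on factor X, at 62.3, 63.9, 57.8, 89.9, 92.4, 221 and 351 CPM. Steap4, a metalloreductase of inflamed liver and fat, stood at 23.1, 24.1, 38.0, 52.4, 71.4, 87.4 and 139 CPM, one of 5 named genes whose order in the 7 mice equalled that of the axis. The others with that order were Crp, Nat8f2, F7 and Lrrc3, and of the 5 only Steap4 and Crp passed the edgeR test. Factor VII of coagulation, F7, stood at 61.7, 78.3, 78.5, 137, 141, 166 and 168 CPM (adjusted p = 0.224 by edgeR).

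Saa3, a serum amyloid that macrophages and fat also make in mice, left the common pattern. It stood at 27.7, 41.2, 58.7, 106, 105, 83.8 and 324 CPM in the axis order, so that mouse 6 lay below mice 1 and 7 although its Saa1 and Saa2 were far above theirs. The slope of Saa3 was still 0.37 ± 0.072 (SE, n = 7 mice, edgeR adjusted p = 0.0134), with mouse 4 the highest. Saa4, the constitutive serum amyloid, stood at 122, 104, 110.4, 185, 162, 397 and 908 CPM, with mice 6 and 4 on top. Hepcidin (Hamp), which blocks iron export and is a target of interleukin-6, stood at 542, 340.0, 283, 804, 524, 303 and 1266 CPM. Mouse 4 had the highest Hamp level and mouse 6 the second lowest, and the slope of 0.16 ± 0.077 did not pass (SE, n = 7 mice, edgeR adjusted p = 0.406).

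The other 7 members that did not pass were C4b, Cp, Serpina3m, Serpina3k, Ifitm3, Il1r1 and Slc39a14. C4b, complement component 4, came closest and stood at 424, 395, 429.7, 725, 748, 1288 and 1088 CPM (adjusted p = 0.0575 by edgeR). Its near-identical neighbour C4a passed, with a slope of 0.25 ± 0.059 (SE, n = 7 mice, edgeR adjusted p = 0.0363), so the pair cannot be read apart. Slc39a14, the zinc and iron importer ZIP14, was highest in mouse 6 at 161 CPM, ahead of mouse 4 at 114 CPM. A further 8 members stayed below 20 CPM. Among these Cxcl1, a neutrophil chemokine, had 4, 8, 2, 21, 18, 66 and 92 counts in the axis order, highest in mice 6 and 4.

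No transcript of a negative acute-phase protein was called by edgeR. Of 18 tested, 0 rose and 0 fell by edgeR, while DESeq2 called 1 rising (Trf) and limma on voom values 0. Over all 4250 genes the last 2 tools called 157 and 51 rising. By edgeR 4 had an unadjusted p below 0.05, all of positive slope, beside 454 of positive slope among all 4250 genes. The median slope was 0.033 beside 0.028 for all genes. Albumin (Alb) stood at 25824, 17605, 15287, 28302, 34448, 15818 and 14383 CPM. Mouse 4 had the lowest Alb level, but mouse 2 was nearly as low, and the slope of -0.11 ± 0.072 did not pass (SE, n = 7 mice, edgeR adjusted p = 0.533). Transthyretin (Ttr), the thyroid hormone and retinol carrier, ranged over 1703 to 3469 CPM, with mouse 2 lowest and mice 5, 7 and 4 close together at the top. Transferrin (Trf), the iron carrier, stood at 4201, 4687, 4310.0, 5990.5, 5643, 7803 and 10456 CPM and was highest in mice 4 and 6 (rho 0.93, edgeR adjusted p = 0.12).

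Complement and coagulation genes held 10 of the calls. Of 40 tested, 10 rose and 0 fell by edgeR (25.0% rising, beside 1.67% of all genes). A rho of at least 0.85 was reached by 17, beside 5.18% of all genes. The median slope was 0.15, beside 0.028 for all genes. The list holds several genes of the acute-phase list, so the counts are not separate. Cpb2, the carboxypeptidase that slows fibrinolysis, stood at 99.2, 107, 115, 157, 154, 271 and 398 CPM, with a slope of 0.28 ± 0.048 (SE, n = 7 mice, edgeR adjusted p = 0.0046). Components of the membrane attack complex were among the calls. C9 stood at 138, 95.9, 114, 131, 116, 239 and 321 CPM (adjusted p = 0.031 by edgeR) and C8b at 31.7, 35.7, 67.3, 54.3, 57.2, 94.5 and 119.5 CPM (adjusted p = 0.022 by edgeR), both highest in mice 4 and 6. C8b and C9 were chosen outside the naming rule, with their values known. Of 16 iron and haem genes 3 rose and 0 fell (18.8% rising, beside 1.67% of all genes), and these were Hp, Hpx and Steap4, which are acute-phase genes as well. DESeq2 called 5, with Trf and Cp added, and limma on voom values 3, beside 157 and 51 rising of all 4250 genes.

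Of 20 tested genes of IL-6 and IL-1 signalling, which lie upstream of these proteins, 2 rose and 0 fell (10.0% rising, beside 1.67% of all genes). The median slope of the list was 0.038 and its median rho 0.27, beside 0.028 and 0.25 for all genes. At an unadjusted p below 0.05 by edgeR, 5 members had a positive slope and 1 a negative one, beside 454 and 90 of all 4250 genes. Jun had the lowest slope of the list, at -0.19 (adjusted p = 0.225 by edgeR). Stat3, the transcription factor activated by the IL-6 receptor, stood at 46.1, 39.4, 38.8, 54.9, 49.9, 98.1 and 106 CPM, with a slope of 0.22 ± 0.045 (SE, n = 7 mice, edgeR adjusted p = 0.0186). Tnfrsf1a, the main TNF receptor and picked once its values were known, had a slope of 0.20 ± 0.049 (SE, n = 7 mice, edgeR adjusted p = 0.0496). Cebpb, which encodes a C/EBP factor, stood at 43.2, 45.9, 19.8, 81.2, 61.4, 91.7 and 106 CPM and did not pass (adjusted p = 0.189 by edgeR), although DESeq2 called it with Stat3 and Tnfrsf1a, and limma on voom values called 1 gene of the list. Over all 4250 genes DESeq2 called 157 rising and limma on voom values 51. Socs3, the feedback inhibitor of IL-6 signalling, was below 20 CPM with 2, 8, 2, 7, 4, 36 and 36 counts in the axis order, highest in mice 6 and 4. The cytokines themselves were at the edge of detection, with 0 to 5 counts of Il6 and 2 to 10 of Il1b per mouse.

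Secretory pathway genes, which fold and export plasma proteins, leaned upward without calls. Of 30 tested, 0 passed by edgeR or by limma on voom values, and DESeq2 called 5 rising, beside 157 of all 4250 genes. By edgeR 13 had an unadjusted p below 0.05 with a positive slope and 0 with a negative one. Over all 4250 genes these counts were 454 and 90. The median slope was 0.10, beside 0.028 for all genes. Xbp1, a transcription factor of the unfolded protein response, stood at 81.3, 77.8, 56.1, 95.5, 105, 122 and 183 CPM (adjusted p = 0.137 by edgeR). The list had a median rho of 0.71 beside 0.25 for all genes. Of its 30 tested genes 4 were highest in mice 4 and 6, an order found in 11.2% of all genes.

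The 1 gene called falling was Hsd17b6, a hydroxysteroid dehydrogenase of the liver picked once its values were known, while DESeq2 called 12 falling genes and limma on voom values 1. It stood at 127, 70.9, 63.0, 114, 92.4, 33.7 and 27.1 CPM, lowest in mice 6 and 4, with a slope of -0.30 ± 0.066 (SE, n = 7 mice, edgeR adjusted p = 0.031). It did not reach the rank limit, since its rho was -0.71. Of the 34 genes ranked down 0 were among the edgeR calls. Sorbs2, a cytoskeletal adaptor, fell in rank at every step, at 58.2, 51.9, 51.8, 48.1, 43.1, 36.5 and 35.9 CPM, the highest 1.62 times the lowest (slope -0.094 ± 0.044, SE, n = 7 mice, edgeR adjusted p = 0.389). Abcc2, the canalicular exporter of conjugated anions, stood at 249, 201, 239.9, 232, 196, 168 and 114 CPM and was lowest in mice 6 and 4 (adjusted p = 0.297 by edgeR). Acnat1, an acyl transferase of the peroxisome, stood at 53.0, 51.4, 50.05, 31.2, 33.1, 24.4 and 25.7 CPM (adjusted p = 0.186 by edgeR). Fam107b, Ppfibp1, Lrmda, Kyat3, Rin2, Svil, Cyp2c38 and Hdac9 were also named by the ranking rule, with adjusted p by edgeR from 0.214 to 0.455.

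Genes ranked down included many with long spans. Their median span on mm10 was 118.5 kb (34 of 34 with a position), beside 11.5 kb for 219 of the 220 genes ranked up and 24.7 kb for 4197 of the 4250 genes tested. Spans over 100 kb were found in 18 of the 34 (52.9%), in 3.65% of the genes ranked up and in 15.9% of all genes. In the 171 genes lowest in mice 4 and 6 the median was 84.8 kb, and in the 478 highest there it was 12.4 kb. The span of a gene was not used to rank it. Mouse 4 also had the lowest ribosomal and mitochondrial RNA shares and the highest depth, and the part of RNA quality or of intronic reads in this difference was not tested.

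Metabolic lists gave few calls. Of 30 tested PPAR-alpha targets of fatty acid oxidation 0 were called by edgeR, with 3 at an unadjusted p below 0.05, all of negative slope. Their median slope was -0.062, and 5 of the 30 were lowest in mice 4 and 6, an order found in 4.02% of all genes. DESeq2 and limma on voom values called 0. Ppara itself stood at 112, 166, 76.8, 149, 104, 98.1 and 62.0 CPM (adjusted p = 0.402 by edgeR). Of 36 cytochrome P450 and xenobiotic receptor genes 2 rose and 0 fell (5.56% rising, beside 1.67% of all genes), namely Cyp2d40 (slope 0.29 ± 0.053, edgeR adjusted p = 0.00656) and Cyp3a13 (slope 0.22 ± 0.051, edgeR adjusted p = 0.042), both picked once their values were known. In that list DESeq2 called 4 rising and 1 falling, and limma on voom values 2 rising. Over all 4250 genes these counts were 157, 12 and 51. The median slope of the 36 was -0.041, and 15 of their slopes were positive, beside 2725 of all 4250. By edgeR 6 had an unadjusted p below 0.05 with a positive slope and 3 with a negative one. Mice 4 and 6 were the highest in 7 and the lowest in 5, orders found in 11.2% and 4.02% of all genes. Lipogenesis (21 tested), bile acid (22), cholesterol (10), urea and amino acid (23), major urinary protein (18), interferon and MHC class I (19), MHC class II (4), clock (8), pericentral (14) and respiratory chain genes (69) held 0 edgeR calls. At an unadjusted p below 0.05 by edgeR these lists held 3, 4, 2, 5, 4, 5, 0, 0, 1 and 1 genes in that order. All of these had positive slopes except 3 of the 4 bile acid genes. Slopes were positive in 6 of the 22 bile acid genes and in all 19 interferon and MHC class I genes, beside 2725 of all 4250. Mice 4 and 6 were the highest in 7 of those 19, an order found in 11.2% of all genes. Over all 4250 genes tested, 454 of positive slope and 90 of negative slope reached that level. DESeq2 called 1 rising gene each in the bile acid, cholesterol, urea, interferon and pericentral lists and 1 falling gene, Abcc2, in the bile acid list, and limma on voom values called 0 in all of them. Igfbp1 was the 1 call among 24 genes of glucose and glucocorticoid control (adjusted p = 0.0363 by edgeR). This insulin-like growth factor binding protein, induced in fasting and inflammation, stood at 33.4, 38.9, 42.3, 34.3, 38.9, 62.3 and 85.4 CPM. Early response and nuclear RNA genes, which include Jun, Junb and Malat1, held 0 edgeR calls among 9 tested. Their median slope was -0.11, beside 0.028 for all genes, and 3 of the 9 slopes were positive. At an unadjusted p below 0.05 by edgeR, 1 of the 9 had a positive slope and 1 a negative one.

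**Figure D4:**
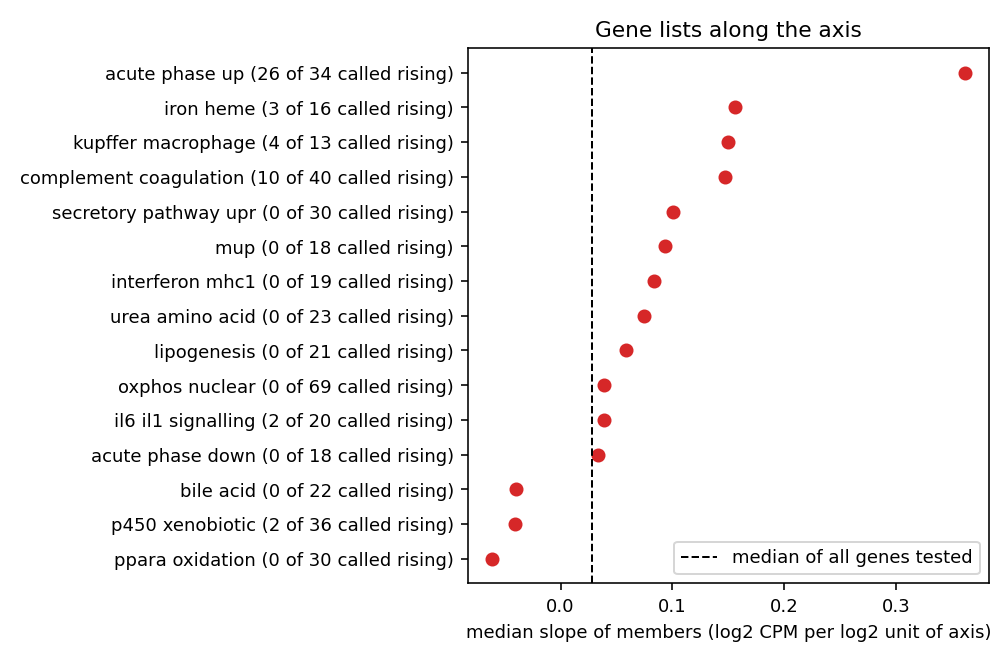
Median edgeR slope of the tested members of 15 gene lists (x axis, log2 CPM per log2 unit of the axis), with the number of members called rising beside each name and the median of all genes, 0.028, as a dashed line. The acute-phase list stands at 0.36, and the PPAR-alpha, P450 and bile acid lists lie below 0. These are not the extremes of all lists examined. The erythroid list (4 tested) had a median of 0.43. Medians were -0.11 for early response and nuclear RNA genes (9 tested) and -1.2 for muscle, fat and pancreas markers (6 tested).

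Some markers of macrophages and red blood cells rose, and 1 of the 14 hepatocyte markers, Ambp, the precursor of alpha-1-microglobulin and bikunin, stood at 1508, 1015, 821, 1509, 1518, 2766 and 4319 CPM (slope 0.27 ± 0.054, SE, n = 7 mice, edgeR adjusted p = 0.0129). In bulk liver, a change in the number of cells of a type and a change in RNA per cell cannot be told apart. Of 13 tested Kupffer cell and macrophage markers 4 rose and 0 fell by edgeR, C1qb, C1qc, Csf1r and Marco (30.8% rising, beside 1.67% of all genes). All 13 slopes were positive, as were 2725 of all 4250. DESeq2 called 6, with C1qa and Lyz2 added, and limma on voom values 1, beside 157 and 51 rising of all 4250 genes. C1qb, a chain of complement C1q, stood at 45.6, 49.6, 34.5, 80.5, 70.4, 121 and 177 CPM, with a slope of 0.28 ± 0.052 (SE, n = 7 mice, edgeR adjusted p = 0.00756). Summed over the 22 markers in the files, this list stood at 1115, 914, 897, 1406, 1427, 1824 and 2143 CPM in the axis order, highest in mice 6 and 4. The part of macrophage content in the other results was not tested.

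Of the neutrophil markers 0 of 13 reached 20 CPM, so none was tested. Their sum was 13.3, 17.6, 14.7, 31.2, 26.3, 140.4 and 90.9 CPM in the axis order, highest in mice 6 and 4. S100a8 had 3, 14, 7, 17, 16, 74 and 111 counts and S100a9 had 11, 13, 4, 18, 21, 88 and 98. The 13 markers together had 196 counts in mouse 6 and 248 in mouse 4, so these 2 genes made up most of the sum there. Ly6g had 0 counts in all mice but mouse 7, which had 1. Prtn3, the granule protease proteinase 3, stood at 0.58, 0.46, 1.73, 3.12, 4.20, 61.6 and 78.5 CPM. It passed the level filter only through mice 6 and 4, so its values are a description with no test. Elane and Mpo, which encode other granule enzymes of neutrophils, had 0 counts each in mice 6 and 4, and at most 2 and 1 counts elsewhere. A1bg, alpha-1-B glycoprotein and picked once its values were known, stood at 5.77, 14.8, 6.90, 9.99, 17.3, 218 and 401 CPM and likewise passed only through mice 6 and 4.

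Erythroid transcripts were highest in mouse 6, not in mouse 4. Summed over 7 markers they stood at 236, 274, 182, 238, 399.6, 1730.5 and 732 CPM in the axis order. All 4 tested haemoglobin genes were highest in mice 6 and 4, an order found in 11.2% of all genes. Of these Hba-a1 and Hba-a2 passed the edgeR test, with slopes of 0.37 ± 0.07 and 0.36 ± 0.079 (SE, n = 7 mice, adjusted p = 0.00835 and 0.0268), and the haemoglobin genes are near copies whose counts may be shared. The T, NK and B cell markers had 0 of 19 above 20 CPM, and their sum of 33.7 to 70.9 CPM was lowest in mouse 6 and highest in mouse 3. Of 8 endothelial, 12 stellate and 3 cholangiocyte markers tested 0 passed by edgeR, with 1, 0 and 1 at an unadjusted p below 0.05. The endothelial gene had a positive slope and the cholangiocyte gene a negative one. DESeq2 and limma on voom values called 0 in these lists. Muscle, fat and pancreas markers summed to 5713 CPM in mouse 3 and to 27.9 to 50.9 CPM in the others. The part of blood or muscle in the other results was not tested. Without mouse 3 edgeR called 64 rising and 3 falling genes.

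**Figure D5:**
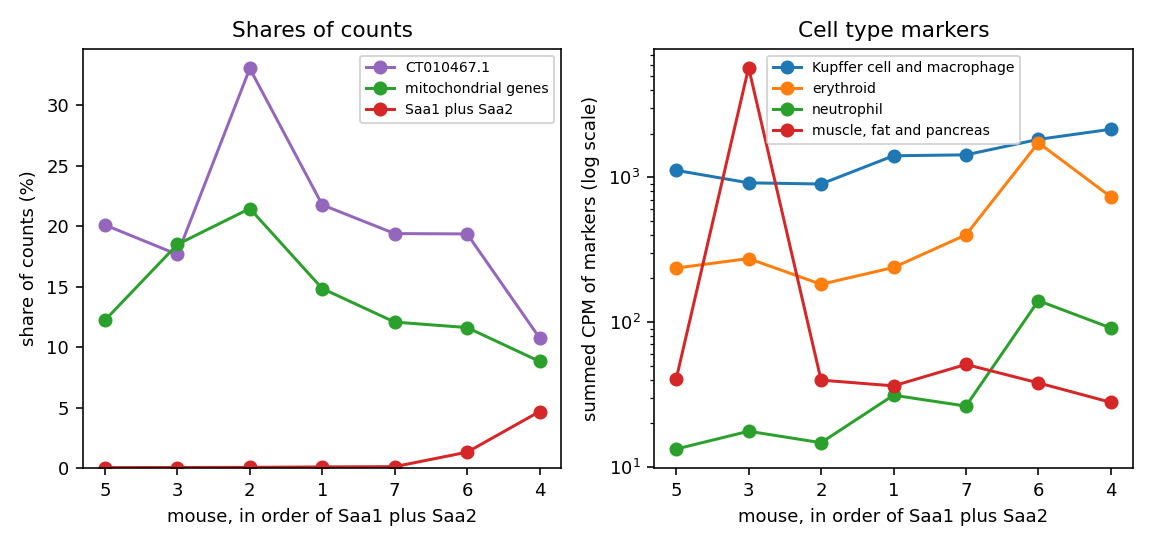
Left, the share of counts (%) of CT010467.1, mitochondrial genes and Saa1 plus Saa2 in the 7 livers in axis order, and right, the summed CPM of 4 marker lists on a log scale. Mouse 4 has the lowest CT010467.1 and mitochondrial shares (10.8% and 8.82%), erythroid markers peak in mouse 6 at 1730.5 CPM, and muscle, fat and pancreas markers peak in mouse 3 at 5713 CPM.

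The libraries of a mouse gave nearly the same axis. Their readings differed by 0.017 to 0.22 log2 units within a mouse, against a range of 1.68 among the 5 lower mice. Squared differences in gene counts between paired libraries were 1.16 to 2.15 times the variance of counting error, with mouse 3 at 2.15. These values are chi-squared per degree of freedom. With the axis read from the first libraries and the genes from the duplicates, edgeR called 56 rising and 2 falling genes, 55 of them among the 72 calls of the summed libraries. With the reading reversed it called 75 and 1, with 65 shared. Over the 34 acute-phase genes 26 and 27 were called in these readings.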

How the data were processed

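RNA from whole frozen liver was column-purified and read by prime-seq, a 3' tag method with unique molecular identifiers. The authors deposited whole-number counts for 36072 gene symbols per library, without normalization, on genome build mm10; the aligner settings, annotation, use of strand and counting of intronic reads are not given in the sources used here. RNA integrity, a covariate in the authors' model, has no value among the labels and entered no fit.

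The 2 libraries of a mouse were summed, scaled by TMM factors and filtered at a mean of 20 CPM, leaving 4252 genes with Saa1 and Saa2. The axis is log2(CPM + 1) of Saa1 plus Saa2. Slopes on the axis were tested with glmQLFit and glmQLFTest of edgeR 4.0.16 with robust = TRUE, two-sided, with Benjamini-Hochberg adjustment over 4250 genes, and the script was tested on simulated counts. The labels name mice, not cultures or batches, and the common biological coefficient of variation was 0.290. Spearman rho used exact permutation over all orders of the 7 mice. Alternatives were other scalings, filters, axes, covariates, tools (DESeq2 1.42.0, limma 3.58.1 with voom) and mice left out. DESeq2 replaced its parametric dispersion trend by a local fit.

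The members and the gene lists were chosen with earlier results of these data known, and no list was tested. Named genes are Saa1, Saa2, Ddt, tested members of both acute-phase lists, the 12 genes with the highest and the 12 with the lowest rho, and up to 3 members of each other list by rho. Ties in rho were broken by slope, and unnamed gene models and ribosomal and mitochondrial RNA other than CT010467.1 were left out. A gene among those so chosen is not reported here. C4a, C8b, C9, Tnfrsf1a, Cyp2d40, Cyp3a13, Hsd17b6, A1bg, Hba-a1, Marco, Csf1r and the genes given by raw counts stand outside that rule and were picked once their values were known, and Ppia and Ahr by their nearness to the filter. Gene spans came from GENCODE M21 on mm10. Versions were R 4.3.3, Python 3.11.15, numpy 2.4.6, pandas 2.3.3, Biopython 1.88 and matplotlib 3.10.9.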

Additional observations from a re-analysis of the deposited data

Results flagged for a closer look

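Over 139 values checked in the 7 mice (log2(CPM + 1) for genes), 12 had 1 mouse set apart from the rest by a gap larger than Dixon's critical share of the whole range for 7 samples, which chance gives in about 1 of 20 groups. Mouse 3 was highest in the muscle transcripts Acta1 (gap 0.805 of the range), Myh1 (0.872) and Tnnc2 (0.858). Mouse 2, with the largest CT010467.1 share at 33.0%, was lowest in Apoc3 (0.579), Cox7a2 (0.681), Kdr (0.758), Ndufa7 (0.620), Scd1 (0.586) and Ttr (0.658). Mouse 4 was highest in Cp (0.590) and Ifitm3 (0.591), both acute-phase genes that missed the edgeR threshold. Mouse 5 was highest in Nfe2l2 (0.820).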

How the results depend on the processing

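No paired analysis was possible because the 7 mice form 1 group and their numbers mark single animals. Library totals gave 2 falling calls and 121 and 93 genes ranked up and down, and scaling without Saa1, Saa2, ribosomal RNA and mitochondrial genes gave 3 falling calls and 71 ranked down. A filter at 5 CPM gave 3 falling calls with 355 and 151 ranked genes, and one at 50 CPM gave 133 and 7. With the axis from the first libraries there were 2 falling calls and 56 ranked down, and a rho limit of 0.9 left 47 and 8. DESeq2 called 157 rising and 12 falling genes, which included all 72 edgeR calls, limma on voom values 51 and 1, and exact permutation 0 and 0. Ranks as the axis gave 38 rising calls. With the CT010467.1 share held there were 21 rising and 0 falling calls, and with the mitochondrial share held 20 and 3. With robust = FALSE, a setting chosen after seeing the data, edgeR called 57 rising and 0 falling genes, with 564 at an unadjusted p below 0.05.

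Without the 2 mice farthest from the axis median (mice 4 and 6) there were 0 rising and 0 falling calls and 137 genes ranked down. The slopes of Lbp and Mt1 turned to -0.014 and -0.029, and 29 of 33 acute-phase slopes stayed positive, with 0 called. The median slope of all genes in that fit was 0.086. Leaving out 1 mouse at a time gave 19 to 78 rising calls, 0 to 3 falling calls, 107 to 357 genes ranked up and 23 to 93 ranked down. Rising calls fell to 19 without mouse 4 and 43 without mouse 6. Genes ranked up numbered 348 without mouse 2, 357 without mouse 5 and 141 without mouse 7, and those ranked down 93 without mouse 4 and 72 without mouse 5. Of the 72 calls 15 held in all 7 of these fits, among them Lcn2, Orm1, Orm2, Apcs, Mt1 and Mt2. Orm3 and A1bg were also among the 15, but they passed the level filter only through mice 4 and 6. Other calls were less stable, with 2 held in 1 fit, 6 in 2 and 12 in 3. Igfbp1 held in 1 fit, Tnfrsf1a, C4a, C8b and Csf1r in 2, and C3, C9, Marco, C1qc, Cyp3a13 and Hba-a2 in 3. The cause of the changes under scalings, covariates and tools was not tested.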
